A study of Homo sapiens with 3 samples.

Results

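The genes described here are 10 chemokine genes, CXCL1, CXCL2, CXCL3, CXCL5, CXCL6, CXCL8, CXCL16, CX3CL1, CCL2 and CCL20, taken by name from the 35851 rows of an RNA-seq table of 5637 cells, a human bladder cancer cell line. A single library came from cells given a negative control siRNA, named siNC, and 1 each from cells named siMYBL2-1 and siMYBL2-2, in which siRNA targeted MYBL2 (B-Myb), a regulator of late cell cycle genes. All 3 libraries came from wild-type cells given siRNA with the same lipid reagent, and untransfected cells were not analysed here. It is not stated if siMYBL2-1 and siMYBL2-2 differ in siRNA or are repeats, or if cultures were separate. The p-values therefore measure only how far these samples spread, which may be technical.

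Chemokines are small secreted or membrane-bound proteins that guide migrating leukocytes through G protein-coupled receptors. CXCL1, CXCL2, CXCL3, CXCL5, CXCL6 and CXCL8 carry a glutamate-leucine-arginine motif before their CXC cysteines, act on the receptor CXCR2 and attract neutrophils. Epithelial and tumour cells transcribe them in response to inflammatory signals such as IL-1 and TNF, largely through NF-kB, and in the bladder they are known from infection and from neutrophil-rich tumours.

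The 6 neutrophil-attracting genes lie close together on chromosome 4 (73740506 to 74099293, hg38, a span of 358.8 kb), 3 on the plus and 3 on the minus strand. RefSeq promoter sequences (GRCh38.p14) were matched for 7 of the 10 genes, those 6 and CCL20. CXCL16, CCL2 and CX3CL1 had no entry. The last 110 bases before the RefSeq start are shown because the genes of the cluster lay above siNC in siMYBL2-1 and below it in siMYBL2-2 and because these bases hold a shared NF-kB-like sequence. Capitals mark a match to GGGNNTTTCC or GGAATTTCC on either strand, motifs that overlap each other, and an ATAAA on the gene's strand. Sequences run 5′ to 3′ on the strand of the gene.
CXCL1, chr4:73869283-73869392, plus strand: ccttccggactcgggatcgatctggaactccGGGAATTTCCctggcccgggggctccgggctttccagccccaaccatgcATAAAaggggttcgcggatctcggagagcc
CXCL2, chr4:74099196-74099305, minus strand: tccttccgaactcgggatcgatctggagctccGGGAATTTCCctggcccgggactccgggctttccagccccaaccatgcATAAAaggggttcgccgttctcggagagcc
CXCL3, chr4:74038690-74038799, minus strand: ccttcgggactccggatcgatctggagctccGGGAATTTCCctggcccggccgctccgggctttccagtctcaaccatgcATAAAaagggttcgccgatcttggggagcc
CXCL5, chr4:73998678-73998787, minus strand: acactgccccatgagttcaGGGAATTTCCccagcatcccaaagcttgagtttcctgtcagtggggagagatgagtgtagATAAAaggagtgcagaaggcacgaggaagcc
CXCL6, chr4:73836568-73836677, plus strand: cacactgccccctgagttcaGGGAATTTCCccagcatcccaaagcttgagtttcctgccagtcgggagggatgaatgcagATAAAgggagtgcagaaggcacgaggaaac
CXCL8, chr4:73740459-73740568, plus strand: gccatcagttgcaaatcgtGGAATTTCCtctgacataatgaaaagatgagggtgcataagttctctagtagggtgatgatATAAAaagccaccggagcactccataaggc
CCL20, chr2:227813732-227813841, plus strand: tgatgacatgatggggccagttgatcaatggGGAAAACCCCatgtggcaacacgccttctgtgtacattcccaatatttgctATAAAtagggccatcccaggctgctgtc

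All 6 cluster promoters held GGAATTTCC, which occurred in 0.413% of 35116 RefSeq promoters over the 250 bases before the start. The pattern is the exact sequence that these 6 windows share, and some of the windows are near copies. The contrast with all promoters is therefore no test of enrichment. GGGNNTTTCC occurred in CXCL1, CXCL2, CXCL3, CXCL5 and CXCL6 and, on the opposite strand, in CCL20, against 1.73% of all promoters. The capitals begin 79 bases before the start in CXCL1 and CXCL3 and 78 bases before it in CXCL2, against 91 bases in CXCL5 and CXCL8 and 90 bases in CXCL6. ATAAA lay 45 to 15 bases before the start in all 7, against 5.0% of all promoters. TGANTCA, the AP-1 sequence, occurred in CXCL8 only among the 7, between 137 and 131 bases before its start, and in 6.57% of all promoters. By global alignment the printed windows of CXCL1 and CXCL2 were 93.7% identical, those of CXCL1 and CXCL3 90.0% and those of CXCL5 and CXCL6 91.0%, whereas that of CXCL8 was 45.3% identical to CXCL1. CXCL1, CXCL2 and CXCL3 thus resemble each other, as do CXCL5 and CXCL6. These matches describe letters and do not show that a factor was bound. Whether they bear on the levels of these genes was not tested. The deposited table starts CXCL1 and CCL20 at the RefSeq start and the others between 63 bases (CXCL8) and 181 bases (CXCL6) further upstream, so that the printed windows of those 5 lie partly or wholly within the deposited gene.

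Depth ranged from 40259436 to 46177658 assigned reads, and levels are RPKM, reads scaled to exonic length and to the assigned reads of the library. MYBL2 (chromosome 20, 43667019 to 43716496, plus strand), the siRNA target, had 211 RPKM under siNC, against 46.0 RPKM under siMYBL2-1 and 56.3 RPKM under siMYBL2-2. That is 4.59-fold lower (4.40 to 4.79, a 95% counting interval) for the former siRNA library and 3.75-fold lower (3.61 to 3.89) for the latter, with a limma adjusted p of 0.153, of 0.118 to 0.889 under the 7 other limma-trend settings, and a limma-voom adjusted p of 0.0050. Among the marker lists, all 8 epithelial genes were expressed in each library, with summed levels of 2883, 3017 and 2386 RPKM in siNC, siMYBL2-1 and siMYBL2-2. All 7 leukocyte markers were under 1 RPKM in every library (summed 0.254, 0.260 and 0.246 RPKM), as were all 3 endothelial markers (0.0699, 0.109 and 0.0711 RPKM). Of the 4 fibroblast markers, COL1A1 was at 1.43, 2.03 and 1.31 RPKM and the others were below 1. The chemokine reads were thus measured in libraries with almost no reads of leukocyte markers.

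The members ranged from abundant to undetected. In siNC the order of levels per length was CXCL5 at 48.5 RPKM, CXCL1 at 33.0, CXCL8 at 31.0, CXCL2 at 12.8, CXCL3 at 5.04, CXCL16 at 1.99, CCL20 at 1.72 and CXCL6 at 1.62. CXCL1 and CXCL8 did not differ there beyond counting error (ratio 1.06, 95% interval 0.975 to 1.16), nor did CXCL16 and CCL20 (1.16, 0.816 to 1.67) or CCL20 and CXCL6 (1.06, 0.719 to 1.56). CX3CL1 and CCL2 had at most 6 reads in any library. The 10 genes together took 0.0278% of the assigned reads in siNC (95% exact binomial interval 0.0271 to 0.0286), 0.0551% in siMYBL2-1 (0.0541 to 0.0561) and 0.0204% in siMYBL2-2 (0.0198 to 0.0210). Intervals here and below cover counting error only, with each read given a weight of 0.5, because 68.5% to 70.9% of rows with 1 to 20 reads held an even number of reads, a pattern that arises where both ends of a fragment are counted.

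**Figure D1:**
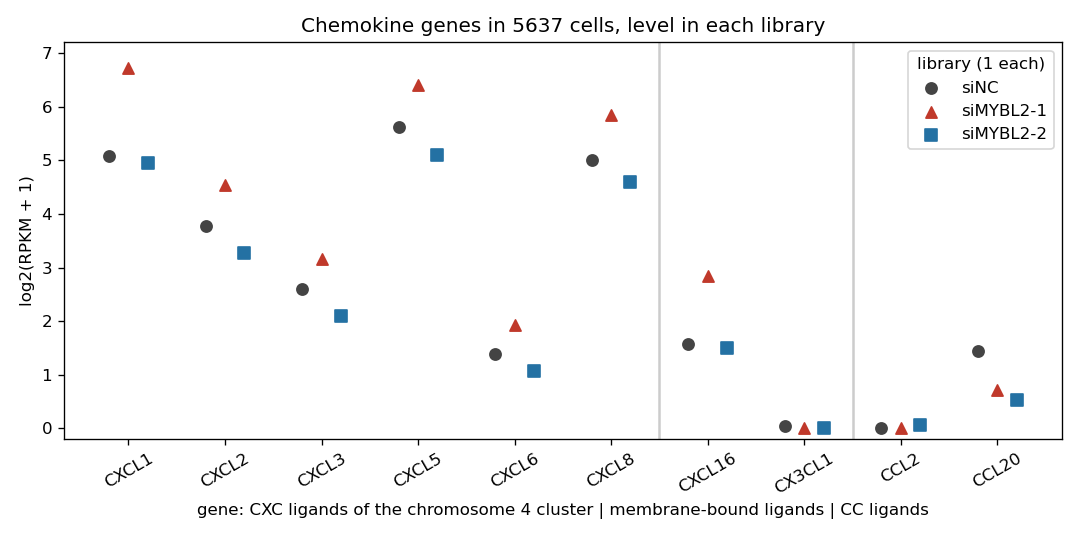
Level of each chemokine gene as log2(RPKM + 1) in siNC (grey circles), siMYBL2-1 (red triangles) and siMYBL2-2 (blue squares), 1 point per library. For the 6 cluster genes and CXCL16 the siMYBL2-1 point is the highest and the siMYBL2-2 point the lowest, with siNC between them, while CCL20 is highest in siNC.

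The neutrophil-attracting genes were all higher in siMYBL2-1 than in siNC and all lower in siMYBL2-2. CXCL1, first described as a growth-stimulating factor of melanoma cells, was at 33.0 RPKM from 1721 reads under siNC, 104 RPKM from 5653 reads under siMYBL2-1 and 29.7 RPKM from 1779 reads under siMYBL2-2. It was 3.16-fold higher in siMYBL2-1 than in siNC (95% counting interval 2.93 to 3.42) and 0.901 times siNC in siMYBL2-2 (0.820 to 0.991). The siNC value therefore lay close to siMYBL2-2 and far from siMYBL2-1, and the siMYBL2 mean of 67.0 ± 52.7 RPKM (SD, n = 2) had an SD larger than its distance from siNC.

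CXCL2, whose product is a close relative of CXCL1, was at 12.8 RPKM from 770 reads under siNC, 22.3 RPKM from 1397 reads under siMYBL2-1 and 8.63 RPKM from 598 reads under siMYBL2-2. The ratios to siNC were 1.75 (1.54 to 1.98) and 0.677 (0.580 to 0.790). CXCL3, the third gene of this type, was at 5.04 RPKM from 450 reads, 7.88 RPKM from 731 reads and 3.26 RPKM from 334 reads, with ratios of 1.56 (1.32 to 1.85) and 0.647 (0.526 to 0.794). In both genes siNC lay between the siMYBL2 libraries. Some reads of these genes could be placed on more than 1 of them: 12.5% of the 50-base windows of CXCL2 transcripts in GENCODE release 29 also occurred in transcripts of CXCL3 or CXCL1, against 6.01% of CXCL3 windows and 4.81% of CXCL1 windows. With 100-base windows these shares were 5.00% for CXCL2, 3.27% for CXCL3 and 0 for CXCL1, and the read length is not given in the sources used here.

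CXCL5, an epithelial chemokine known as ENA-78, was the most abundant member in siNC, at 48.5 RPKM from 4957 reads, against 83.8 RPKM from 8897 reads under siMYBL2-1 and 33.1 RPKM from 3878 reads under siMYBL2-2. Its ratios to siNC were 1.73 (1.64 to 1.82) and 0.682 (0.642 to 0.724). CXCL6, its nearest relative and a ligand of CXCR1 and CXCR2, was about 30 times less abundant, at 1.62 RPKM from 142 reads, 2.82 RPKM from 257 reads and 1.09 RPKM from 110 reads, with ratios of 1.74 (1.29 to 2.36) and 0.675 (0.466 to 0.974). CXCL8, or interleukin-8, the prototype neutrophil attractant, was at 31.0 RPKM from 2841 reads, 56.3 RPKM from 5350 reads and 23.3 RPKM from 2442 reads, with ratios of 1.81 (1.70 to 1.93) and 0.749 (0.694 to 0.810). CXCL8 shared no 50-base window with another gene, CXCL5 shared 1.12% with GLYR1 and CXCL6 shared 2.16% with the pseudogene PPBPP1.

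Ratios of levels per length within each library compare the members with each other. CXCL5 was 1.56 times CXCL8 in siNC (1.46 to 1.67), 1.49 times in siMYBL2-1 (1.42 to 1.56) and 1.42 times in siMYBL2-2 (1.32 to 1.53). CXCL5 was 30.0, 29.8 and 30.3 times CXCL6, and CXCL2 was 2.53, 2.83 and 2.65 times CXCL3. The counting intervals of each of these ratios overlapped across the 3 libraries. CXCL1 differed: its level was 2.59 times that of CXCL2 in siNC (2.29 to 2.92), 4.68 times in siMYBL2-1 (4.31 to 5.10) and 3.44 times in siMYBL2-2 (3.02 to 3.94), 3 intervals that did not overlap. CXCL1 made up 25.0% of the summed RPKM of the cluster in siNC, against 37.6% under siMYBL2-1 and 30.0% under siMYBL2-2, and exceeded CXCL5 in siMYBL2-1, where CXCL5 was 0.804 times CXCL1 (0.766 to 0.843) against 1.47 times in siNC (1.36 to 1.59). With 1 library on each side these comparisons have no replicate check.

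**Figure D2:**
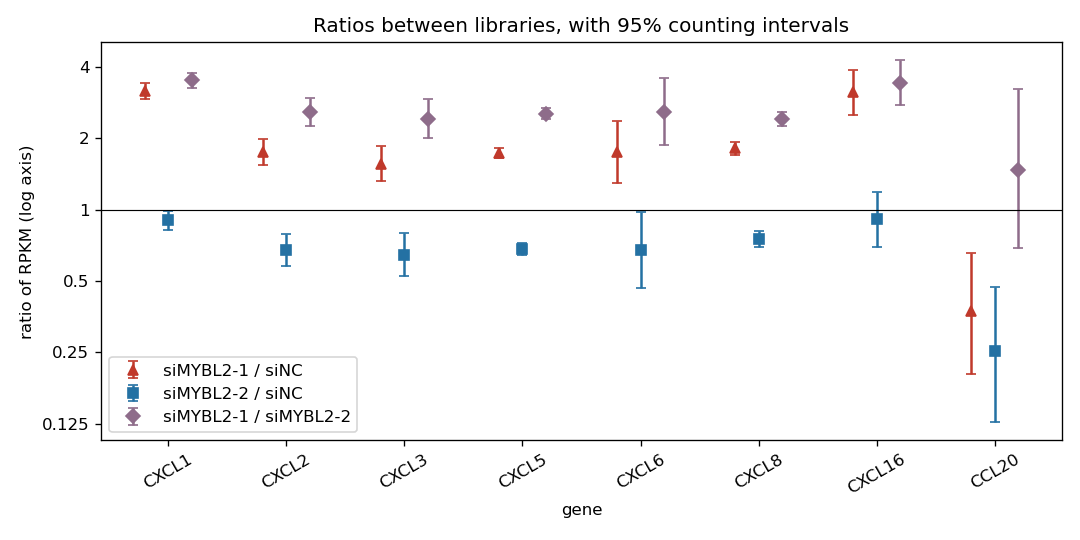
Ratios of RPKM between libraries on a log axis for the 8 members with more than 6 reads in every library: siMYBL2-1 to siNC (red), siMYBL2-2 to siNC (blue) and siMYBL2-1 to siMYBL2-2 (purple), with 95% counting intervals. CXCL1 and CXCL16 stand near 3 in the red ratio, CXCL2, CXCL3, CXCL5, CXCL6 and CXCL8 lie between 1.56 and 1.81, and both red and blue points of CCL20 lie below 1.

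CXCL16 and CX3CL1 encode the chemokines that are made as membrane proteins with a mucin-like stalk, which ADAM10 and ADAM17 can cleave to release the soluble form. CXCL16 (chromosome 17, 4733526 to 4739922, minus strand), ligand of CXCR6 and scavenger receptor for oxidised lipoprotein, was at 1.99 RPKM from 224 reads under siNC, 6.21 RPKM from 726 reads under siMYBL2-1 and 1.81 RPKM from 234 reads under siMYBL2-2. It was 3.12-fold higher in siMYBL2-1 (2.52 to 3.89) and 0.911 times siNC in siMYBL2-2 (0.697 to 1.19), an interval that includes 1. These ratios resemble those of CXCL1 on chromosome 4. MED11 overlaps CXCL16, which has 97.0% of its exonic bases to itself. CX3CL1 (fractalkine) had 6 reads under siNC and 2 under either siMYBL2 label, too few to compare.

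Of the CC chemokine genes, CCL20 was lower in both siMYBL2 libraries and CCL2 was too low to compare. CCL20 (chromosome 2, 227813842 to 227817564, plus strand), the ligand of CCR6 on dendritic cells and T cells, was at 1.72 RPKM from 93 reads under siNC, 0.641 RPKM from 36 reads under siMYBL2-1 and 0.435 RPKM from 27 reads under siMYBL2-2. It was 0.373 times siNC (0.204 to 0.655) and 0.253 times siNC (0.127 to 0.472), lower in both, and the siMYBL2 mean of 0.538 ± 0.145 RPKM (SD, n = 2) lay below siNC by more than its SD. The siMYBL2-1 to siMYBL2-2 ratio of CCL20 was 1.47 (0.687 to 3.23), an interval that includes 1. CCL2, the monocyte attractant MCP-1, had 0 reads in siNC and siMYBL2-1 and 4 in siMYBL2-2, and a count of 0 allows up to 0.0750 and 0.0722 RPKM in those 2 libraries (3 fragments, or 6 reads).

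The siMYBL2 libraries differed from each other in all 6 cluster genes and CXCL16. The ratio of siMYBL2-1 to siMYBL2-2 was 3.51 for CXCL1 (3.25 to 3.79), 3.43 for CXCL16 (2.77 to 4.26), and between 2.42 and 2.58 for CXCL2, CXCL3, CXCL5, CXCL6 and CXCL8. The same ratio of MYBL2 was 0.817 (0.777 to 0.859). Of the 13274 genes tested, those whose mean level reached 1 RPKM, 3.99% had a ratio of at least 2 in this direction, and all 7 of these members did. The 7 members also exceeded 1 RPKM in every library, while CCL20, CCL2 and CX3CL1 did not reach a mean of 1 RPKM and were not tested. All 7 were higher in siMYBL2-1 than siNC, against 45.3% of all genes tested, with 2 (CXCL1 and CXCL16) at least 2-fold higher, against 4.22%. All 7 were lower in siMYBL2-2 than siNC, against 52.0%, with 0 at least 2-fold lower, against 2.55%. Both comparisons share the siNC library, and the genes were chosen with earlier results of these data known. RPKM from a pool of cells cannot tell a change in the share of expressing cells from a change in RNA per cell.

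**Figure D3:**
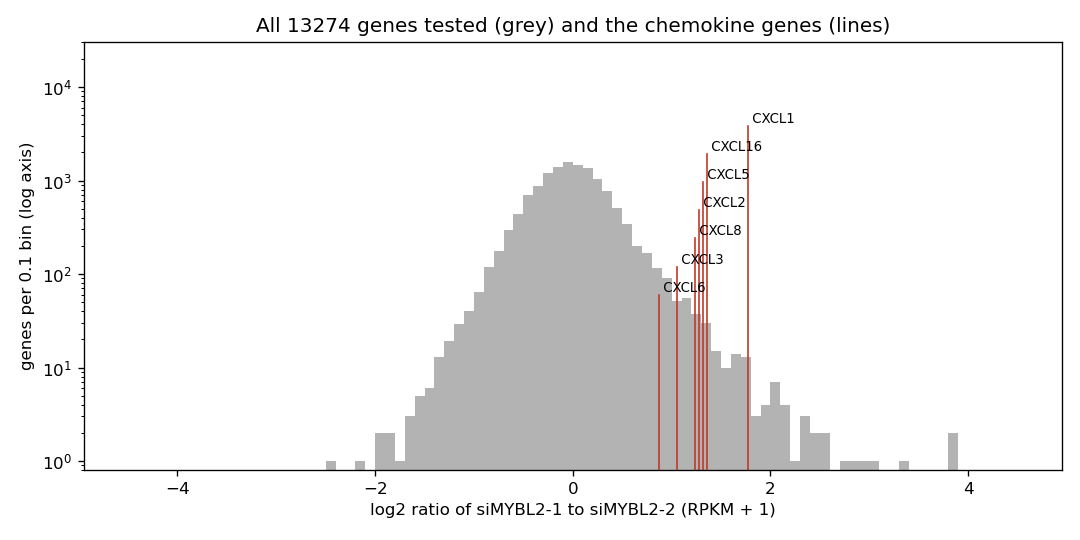
Histogram of the log2 ratio of siMYBL2-1 to siMYBL2-2, on the RPKM + 1 scale, over all 13274 genes tested (grey, log axis), with red lines at the 7 chemokine genes. The lines stand between 0.87 (CXCL6) and 1.78 (CXCL1), to the right of the bulk of genes, whose median is -0.02.

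With the siMYBL2 libraries taken as 1 group, no member passed the test. By limma-trend on log2(RPKM + 1), a linear model that borrows the spread of all genes, the log2 change against siNC was 0.74 (SE 0.56) for CXCL1, 0.59 (SE 0.46) for CXCL16 and between 0.03 and 0.22 for the other 5. The adjusted p (Benjamini-Hochberg over 13274 genes) was 0.999 for each of the 7, 0 of the 7 had an unadjusted p under 0.05, and limma-voom on the recovered reads also called 0. Over all genes 0.00753% were called higher and 0.0% lower, and 625 had an unadjusted p under 0.05. Only the siMYBL2 pair leaves a residual degree of freedom (1), and siNC, a lone library, is assumed to vary as that pair does. The same fit did not call MYBL2 (limma adjusted p 0.153), which was 4.59-fold and 3.75-fold lower. The lack of a call for a member therefore does not show that it was unchanged. CCL20 entered only the fit without a filter on low values, where its log2 difference was -0.83 with an SE of 0.18 (limma, adjusted p 0.640).

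Of the neighbours of the cluster on chromosome 4, taken by position, EREG and AREG resembled it in siMYBL2-1 but not in siMYBL2-2. Within the cluster, PPBP, the platelet chemokine gene between CXCL1 and CXCL5, had at most 4 reads in a library. RASSF6, the nearest expressed gene beside CXCL8, was at 2.33, 1.03 and 1.58 RPKM (siNC, siMYBL2-1, siMYBL2-2 in turn), 0.443 times (0.361 to 0.542) and 0.679 times siNC (0.571 to 0.805). On the other side lie the EGF family genes. AREG (amphiregulin) was at 60.4, 206 and 106 RPKM, 3.41-fold (3.24 to 3.58) and 1.76-fold (1.67 to 1.86) higher, and EREG (epiregulin) was at 2.32, 7.52 and 2.79 RPKM, 3.23-fold (2.82 to 3.72) and 1.20-fold (1.02 to 1.41) higher. EPGN (epigen) was at 1.48, 0.949 and 1.75 RPKM, 0.642 times (0.409 to 0.997) and 1.19 times siNC (0.824 to 1.72). In siMYBL2-2, AREG and EREG were thus above siNC where the 6 chemokine genes were below it. The ratio of siMYBL2-1 to siMYBL2-2 was 2.70 for EREG (2.39 to 3.05) and 1.93 for AREG (1.86 to 2.01). For RASSF6 it was 0.653 (0.528 to 0.807) and for EPGN 0.541 (0.353 to 0.816). A siMYBL2-1 level well above siMYBL2-2 was therefore not confined to the chemokine genes of this region.

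**Figure D4:**
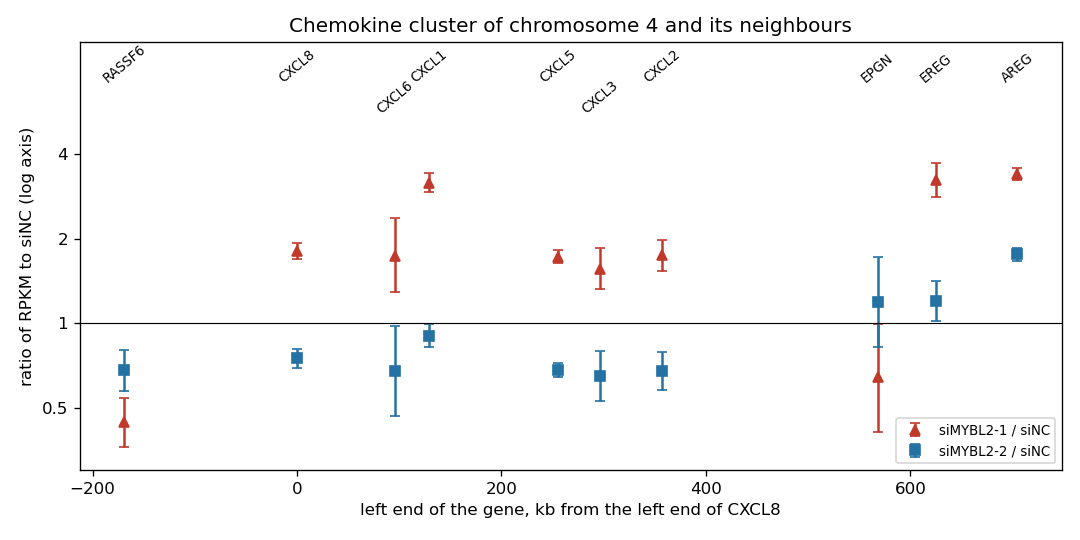
Ratio of RPKM to siNC (log axis, 95% counting intervals) of the protein-coding genes tested along chromosome 4, against the distance of each gene's left end from that of CXCL8, for siMYBL2-1 (red) and siMYBL2-2 (blue). The 6 chemokine genes have red points above 1 and blue points below 1, RASSF6 has both below 1, and EREG and AREG have both above 1.

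Of 46 chemokine ligand genes in the list of the family, 27 had a row, and 19 were not analysed here. The only non-member at 1 RPKM or more in any library was CXCL10, an interferon-induced ligand of CXCR3, at 1.25 RPKM from 59 reads under siNC, 0.244 RPKM from 12 reads under siMYBL2-1 and 0.626 RPKM from 34 reads under siMYBL2-2. It was 5.11-fold lower in siMYBL2-1 (2.09 to 15.0) and 1.99-fold lower in siMYBL2-2 (1.06 to 3.85). CXCL10 thus had its lowest level in siMYBL2-1, where the cluster genes were highest. Its siMYBL2-1 to siMYBL2-2 ratio was 0.390 (0.126 to 1.04), an interval that includes 1, so the order of those 2 libraries is not resolved.

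Few reads came from receptors for these ligands. Of 23 receptor genes, 19 had a row, 17 of these stayed under 1 RPKM in every library, and CXCR2, the shared receptor of the cluster's ligands, had at most 8 reads in a library. CXCR6, which binds CXCL16, had at most 11 reads and CCR6, which binds CCL20, at most 6. ACKR3, an atypical scavenging receptor, was the only receptor gene tested. Its level was 1.06 RPKM under siNC, 1.32 RPKM under siMYBL2-1 and 2.20 RPKM under siMYBL2-2, with ratios to siNC of 1.25 (0.847 to 1.87) and 2.08 (1.47 to 2.98). CCR10 exceeded 1 RPKM in siMYBL2-2 only, at 0.996, 0.922 and 1.06 RPKM.

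The sheddases of CXCL16 and CX3CL1 were expressed in all 3 libraries. ADAM17 was at 13.8, 15.5 and 11.6 RPKM and ADAM10 at 7.58, 8.64 and 7.63 RPKM (siNC, siMYBL2-1, siMYBL2-2 in turn). RHBDF2 (iRhom2), which carries ADAM17 to the cell surface, was at 2.39, 4.23 and 2.33 RPKM, and FRMD8, which stabilises that complex, at 2.23, 2.12 and 1.40 RPKM. Of the 5 genes tested, 4 were higher in siMYBL2-1 (45.3% of all genes) and 3 lower in siMYBL2-2 (52.0% of all genes), with median log2 ratios of 0.15 and -0.02.

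Upstream of the chemokines, the list of IL-1, TNF, IL-17 and Toll-like receptor genes had 12 tested members of 20. Of these, 9 were higher in siMYBL2-1 than siNC (45.3% of all genes) and 9 lower in siMYBL2-2 (52.0%), with median log2 ratios of 0.46 and -0.20, against -0.04 and -0.01 over all genes tested. IL1B, a main inducer of CXCL8, was at 13.8, 30.6 and 12.1 RPKM (siNC, siMYBL2-1, siMYBL2-2 in turn), 2.22-fold (2.05 to 2.41) and 0.880 times siNC (0.800 to 0.969). IL1RN, the secreted antagonist of the IL-1 receptor, was at 1.29, 9.44 and 0.991 RPKM, 7.33-fold (5.83 to 9.30) and 0.769 times siNC (0.555 to 1.06). Both genes therefore had siMYBL2-1 as the high library, the order seen in the cluster. TNFRSF1A, the main TNF receptor, was at 4.61, 3.02 and 3.56 RPKM, lower in both siMYBL2 libraries. For the 7 chemokine genes tested the medians were 0.78 and -0.40.

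NF-kB itself is a dimer drawn from a family of 5 subunits. Of their 5 genes, 3 were higher in siMYBL2-1 and 2 lower in siMYBL2-2, against 45.3% and 52.0% of all genes, with median log2 ratios of 0.35 and 0.01. NFKB1 (p105/p50) was at 6.72, 9.92 and 6.78 RPKM, RELA (p65) at 10.4, 13.7 and 11.0 RPKM, and REL at 3.76, 1.86 and 2.95 RPKM (siNC, siMYBL2-1, siMYBL2-2 in turn). Of the 11 NF-kB feedback genes, which NF-kB itself induces or which restrain it, 8 were higher in siMYBL2-1 and 9 lower in siMYBL2-2, against 45.3% and 52.0% of all genes, with medians of 0.32 and -0.33. TNFAIP3 (A20), a ubiquitin-editing inhibitor, was at 36.4, 54.7 and 28.2 RPKM, in the order of the cluster genes. NFKBIA, the inhibitor IkB-alpha, was at 117, 106 and 75.0 RPKM, highest in siNC, and NFKBIZ, a nuclear cofactor, at 9.97, 12.0 and 6.22 RPKM. BCL3 (3.36, 1.64 and 2.04 RPKM) and the deubiquitinase gene CYLD (1.48, 0.631 and 1.15 RPKM) were also highest in siNC.

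**Figure D5:**
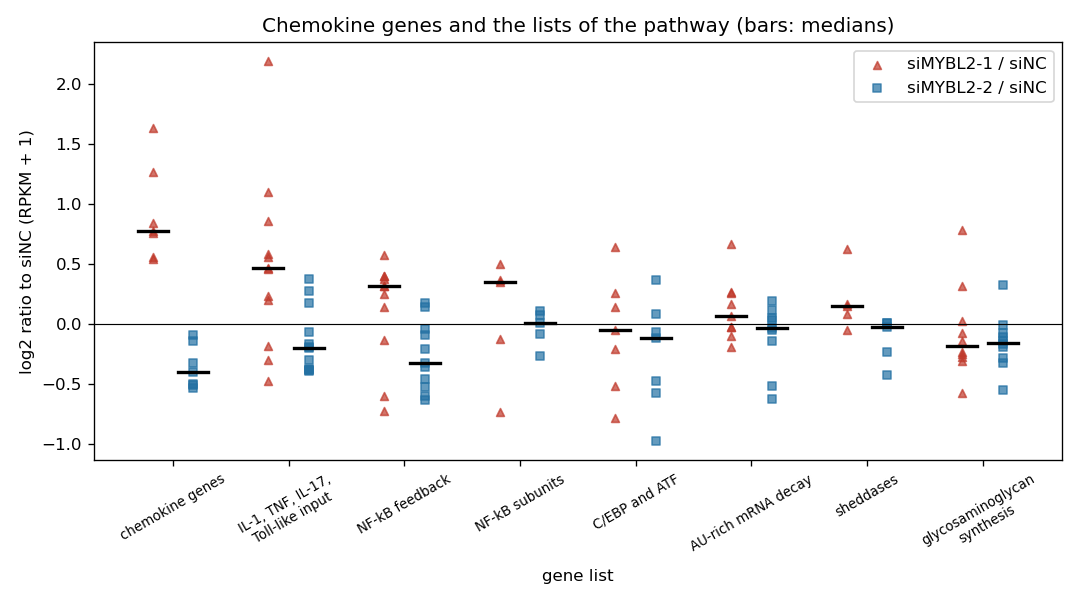
Log2 ratio to siNC, on the RPKM + 1 scale, of each tested gene of 8 lists in siMYBL2-1 (red triangles) and siMYBL2-2 (blue squares), with black bars at the list medians. The medians of the chemokine genes, 0.78 and -0.40, lie farther apart than those of the other lists shown. The epithelial markers, with medians of 0.51 and -0.43, are not shown.

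Chemokine transcripts are short-lived because AU-rich elements recruit decay factors. Of 9 such regulators tested, 5 were higher in siMYBL2-1 and 5 lower in siMYBL2-2, near the 45.3% and 52.0% of all genes, with median log2 ratios of 0.06 and -0.03. ZC3H12A (Regnase-1), a nuclease of inflammatory transcripts, was at 16.3, 14.2 and 10.2 RPKM (siNC, siMYBL2-1, siMYBL2-2 in turn), ZFP36 (tristetraprolin) at 2.84, 2.77 and 1.69 RPKM and its relative ZFP36L2 at 3.30, 5.83 and 2.90 RPKM. Of the 7 C/EBP and ATF factors, 3 were higher in siMYBL2-1, near the 45.3% of all genes, and 5 lower in siMYBL2-2, against 52.0%, with medians of -0.05 and -0.12. CEBPA was at 3.41, 1.55 and 1.23 RPKM, CEBPD at 6.34, 4.14 and 4.29 RPKM and CEBPB, which binds the CXCL8 promoter together with NF-kB, at 23.7, 20.4 and 15.6 RPKM, all highest in siNC. ATF3, a stress-induced factor, was at 1.94, 3.59 and 1.71 RPKM, and DDIT3 (CHOP) at 6.02, 5.80 and 8.07 RPKM.

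Secreted chemokines are held at the cell surface by heparan sulfate. Of 10 tested genes of glycosaminoglycan synthesis and its carriers, 3 were higher in siMYBL2-1 and 9 lower in siMYBL2-2, against 45.3% and 52.0% of all genes, with median log2 ratios of -0.19 and -0.16. SDC4 (syndecan-4) was at 14.3, 25.3 and 9.43 RPKM (siNC, siMYBL2-1, siMYBL2-2 in turn), 1.77-fold (1.62 to 1.94) and 0.661 times siNC (0.591 to 0.738), ratios close to those of CXCL5. SDC1 (syndecan-1) was at 49.7, 39.9 and 40.6 RPKM, HS6ST1, a heparan sulfate sulfotransferase, at 10.7, 6.88 and 9.45 RPKM, and NDST1, another enzyme of the chain, at 2.00, 2.74 and 2.77 RPKM. None of the tested genes of the pathway lists passed limma (smallest adjusted p 0.726, for CEBPA, the only one with an unadjusted p under 0.05), and limma-voom also called 0, with a smallest adjusted p of 0.688.

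Some genes of other kinds had the same order of libraries. Among the epithelial markers, 5 of 8 were higher in siMYBL2-1 and 5 lower in siMYBL2-2, against 45.3% and 52.0% of all genes. Their median log2 ratios were 0.51 and -0.43, against 0.78 and -0.40 for the 7 chemokine genes tested. CDH1 (E-cadherin) was at 14.8, 36.2 and 8.98 RPKM and EPCAM at 102, 177 and 71.8 RPKM (siNC, siMYBL2-1, siMYBL2-2 in turn), while KRT18 was at 124, 298 and 172 RPKM, KRT5 at 315, 176 and 230 RPKM and KRT17 at 724, 558 and 497 RPKM. Their part in the chemokine result was not tested. By Euclidean distance of the pair of log2 ratios to siNC from the mean pair of CXCL1, CXCL2 and CXCL3 (0.98 and -0.39), the nearest of 4936 protein-coding genes of at least 5 RPKM, over 3 libraries, were RRBP1, HBEGF, IL1A, PDE8A, CXCL8, FAM129B, TGM2 and LY6K. CXCL1, CXCL2 and CXCL3 were left out of the ranking and lay farther from their own mean pair (0.69, 0.26 and 0.44) than these 8 genes, so that the pair stands for none of the 3 closely. RRBP1, a ribosome-binding protein of the endoplasmic reticulum, was at 142, 279 and 114 RPKM (distance 0.066). HBEGF, an EGF receptor ligand, was at 12.6, 24.5 and 8.88 RPKM (distance 0.11), and IL1A, an alarmin of epithelial cells, at 21.9, 40.5 and 16.7 RPKM (distance 0.12). CXCL8 ranked at 5 and CXCL5 at 17 among these genes.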

How the data were processed

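Poly(A) RNA of 3 samples of 5637 cells was sequenced, with dUTP marking of the second strand, per the labels' protocols. The authors deposited 1 table of RPKM values with exon intervals and exonic lengths, per the file headers. Per the submitters' processing notes, the build was hg38 and StringTie 1.3.4d, HISAT2 2.0.4 and cutadapt 1.9 were used, without stated roles. The counting tool, any use of strand and the gene models were not given in the sources used here. Multiplying RPKM by length gave whole reads for 100% of values, within 0.001 reads.

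siMYBL2 (2 libraries) was compared with siNC (1 library) by limma-trend (limma 3.58.1, R 4.3.3) of log2(RPKM + 1), keeping the 13274 genes whose mean reached 1 RPKM, with Benjamini-Hochberg adjustment and a threshold of 0.05. This scale understates changes of low genes. Ratios of single genes are plain RPKM ratios with exact conditional binomial intervals at 95%. Directions are counted per library rather than over both ratios, which share siNC. Members, lists and motifs were chosen with earlier results of these data known. Named from each list, among genes tested, were the 3 genes with the largest absolute mean log2 ratio to siNC. The rule also took the 2 with the largest absolute log2 ratio between the siMYBL2 libraries. It added other ligands with at least 1 RPKM in any library and the 8 genes nearest in pattern. Receptors of members, neighbours by position and CCR10 were named outside that rule, after their values were seen. Alternatives were other pseudocounts, filters, scalings and moderation, limma-voom, and leaving out each siMYBL2 library.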

Additional observations from a re-analysis of the deposited data

How the results depend on the processing

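None of the 7 chemokine genes tested passed the threshold under any fit tried (smallest adjusted p 0.844, CXCL16 without a filter on low values), and 53 of 54 values of the 7 genes under other fits kept their sign. The exception was CXCL3, at -0.0030 by limma-voom. Leaving out a siMYBL2 library decides the sign of every one of the 7: the log2 change ranged from -0.15 to 1.63 for CXCL1, -0.51 to 0.76 for CXCL2, -0.50 to 0.56 for CXCL3, -0.54 to 0.78 for CXCL5, -0.32 to 0.54 for CXCL6, -0.40 to 0.84 for CXCL8 and -0.088 to 1.27 for CXCL16, the lower value without siMYBL2-1. For MYBL2 it ranged from -2.17 to -1.89. Of the 8 members with more than 6 reads in every library, 7 were higher in siMYBL2-1 and 8 lower in siMYBL2-2. Over the 13274 genes tested, a set without CCL20, the shares were 45.3% and 52.0%. A pseudocount cannot change the direction of a difference, so it is no check on these counts. Both other scalings left them the same, but their shifts were too small to reverse any of these directions. With members of at least 5 RPKM both counts were 5, because fewer genes remain. The limma calls over all genes, 1 higher and 0 lower, stayed the same with a pseudocount of 0.1, and 0 were called higher with a pseudocount of 5, without a filter, with a filter at 5 RPKM, under both other scalings and with robust moderation, where 259 to 2364 genes had an unadjusted p under 0.05. limma-voom called 3 higher and 7 lower, with 639 at an unadjusted p under 0.05, and gave MYBL2 an adjusted p of 0.0050, against 0.118 with a pseudocount of 0.1, 0.470 without a filter, 0.831 scaled without mitochondrial reads and 0.889 under median-of-ratios scaling. The cause was not tested. Both scalings moved a library by at most 0.02 (log2). No count over all genes could be made without a siMYBL2 library, as no residual degree of freedom remains. No paired analysis was possible because the siNC label carries no replicate number. Depth limits CX3CL1 and CCL2, which could not be compared.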
